A study of Rattus norvegicus with 6 samples.

Results

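The genes described here encode the ADAM, ADAMTS and matrix metalloprotease (MMP) families, the ADAMTS-like (ADAMTSL) proteins and the tissue inhibitors of metalloproteases (TIMPs). A gene was included when a probe set carried exactly 1 gene symbol that joins Adam, Adamts, Adamtsl, Mmp or Timp to a number, and 71 of the 17245 genes named on the arrays met this rule. They comprised 24 ADAM, 18 ADAMTS, 4 ADAMTSL, 21 MMP and 4 TIMP genes. The rule itself used names only, but the members and the rule were chosen with earlier results of these arrays known. A gene with more than 1 probe set was represented by the brightest, so measured intensity chose the probe set. RNA came from neurospheres of stem and progenitor cells (NSPCs) of the adult rat hippocampus. Active cultures (A-NSPCs) grew for 4 days with FGF2 alone at 10 ng/ml, and quiescent cultures (Q-NSPCs) for 4 days with FGF2 at the same dose plus BMP4 at 50 ng/ml, so both groups received the mitogen FGF2. Each group had 3 biological replicates with 1 Affymetrix Rat Gene 1.1 ST array each. The labels give no strain or age and do not say whether the replicates came from separate animals, so the p-values measure the spread between these cultures.

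ADAMs are membrane-anchored proteins with a disintegrin and a metalloprotease domain, and the active ones cut the outer part of other membrane proteins from the cell surface, a step known as shedding. ADAMTS proteases are secreted and carry thrombospondin repeats that bind the matrix, and several of them cut the lecticans, the chondroitin sulphate proteoglycans of brain matrix. MMPs cut collagens, laminins and many other matrix and surface proteins, some as secreted enzymes and others anchored in the membrane, and TIMPs block the active site of MMPs and of some ADAM and ADAMTS proteases. In neural progenitors these proteases are known for shedding Notch ligands and growth factors and for remodelling the matrix of the niche.

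Values are the log2 intensities that the authors made with RMA, a method that removes background, brings the arrays to one distribution and merges probes into probe sets. An intensity depends on the probes, so values were compared between groups for the same gene and not between genes. Differences are Q-NSPC minus A-NSPC on the log2 scale. The test was that of limma, two-sided, with p-values adjusted over all 17245 genes by the Benjamini-Hochberg method, and a gene is said to have risen or fallen only at an adjusted p under 0.05. RMA gives no detection call and no value of 0. The mean intensity of 25 of the 71 genes lay under 6.41, the 25th percentile of all genes, and none of these 25 was called.

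Q-NSPC replicate 1 stood between the groups. Over the 2433 genes called on the whole array, its distance from the A-NSPC mean was a median of 58.5% of that of Q-NSPC replicates 2 and 3. With all arrays 7.91% of all genes rose and 6.2% fell, which is the background for the marker counts below. Without Q-NSPC replicate 1, 23.7% of all genes were called. Of 8 markers of neural progenitors 1 rose (1 rose and 3 fell without Q-NSPC replicate 1). Msi1 rose by 0.52 (log2, Q-NSPC minus A-NSPC, adjusted p = 0.0264). Its call was lost without any array other than Q-NSPC replicate 1 (adjusted p up to 0.106). Prom1, Sox2 and Sox9 had differences of 0.37, 0.24 and 0.12. Vim, Notch1, Nes and Fabp7 had differences of -0.14, -0.43, -0.57 and -0.65. The mean of Sox2 was 12.28 in A-NSPCs and 12.52 in Q-NSPCs, and that of Prom1 only 5.16 and 5.53. Among the marker lists of other cells, those of neurons and of the oligodendrocyte lineage had the largest median differences, of 1.38 and -0.91. Of 8 neuronal markers 6 rose and 1 fell, and their mean intensity was 9.78 to 9.90 over the A-NSPC arrays and 10.53 to 11.03 over the Q-NSPC arrays. Of 7 oligodendrocyte lineage markers 2 fell and 0 rose, with array means of 9.83 to 9.97 in A-NSPCs and of 8.64 to 9.68 in Q-NSPCs, the highest of the latter in replicate 1. Without that array 6 of the 7 fell, and without any other single array 0 did (2.43% to 6.94% of all genes called). Of 7 astrocyte markers 1 rose, with array means of 8.78 to 8.92 in A-NSPCs and of 9.10 to 9.26 in Q-NSPCs (2 rose and 1 fell without Q-NSPC replicate 1). The median difference of the astrocyte list was 0.01. No marker of microglia (8), endothelium (5) or fibroblasts and mural cells (7) was called. In such bulk RNA fewer cells of a type and less RNA per cell cannot be told apart, and the part of these cell types in the results below was not tested.

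Among the 71 genes 9 fell in Q-NSPCs and 5 rose, and the other 57 did not pass the test. The genes that fell were Mmp2, Mmp15, Mmp16, Mmp17, Adam4, Adam11, Adam12, Adamts20 and Timp4, and those that rose were Adam23, Adamts4, Adamts5, Adamts9 and Timp2. The 9 that fell were 12.7% of the members, where 6.2% of all genes fell, and the 5 that rose were 7.04%, where 7.91% of all genes rose. Together 19.7% of the members were called, against 14.1% of all genes. Without Q-NSPC replicate 1 these shares were 23.9% and 23.7%, so the members' share of calls then lay near the background. The median difference was -0.0041 over the members and 0.01 over all genes. All 3 Q-NSPC arrays lay below all 3 A-NSPC arrays in 12 members (15.3% of all genes) and above them in 7 (18.7% of all genes). The counts of calls depended on single arrays. No member rose and 1 fell without A-NSPC replicate 1 (2.43% of all genes called), 2 rose and 5 fell without A-NSPC replicate 2 (6.94%), and none rose and 1 fell without A-NSPC replicate 3 (2.86%). Likewise 7 rose and 10 fell without Q-NSPC replicate 1 (23.7%), none rose and 4 fell without Q-NSPC replicate 2 (4.48%), and none rose and 2 fell without Q-NSPC replicate 3 (2.71%).

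**Figure D1:**
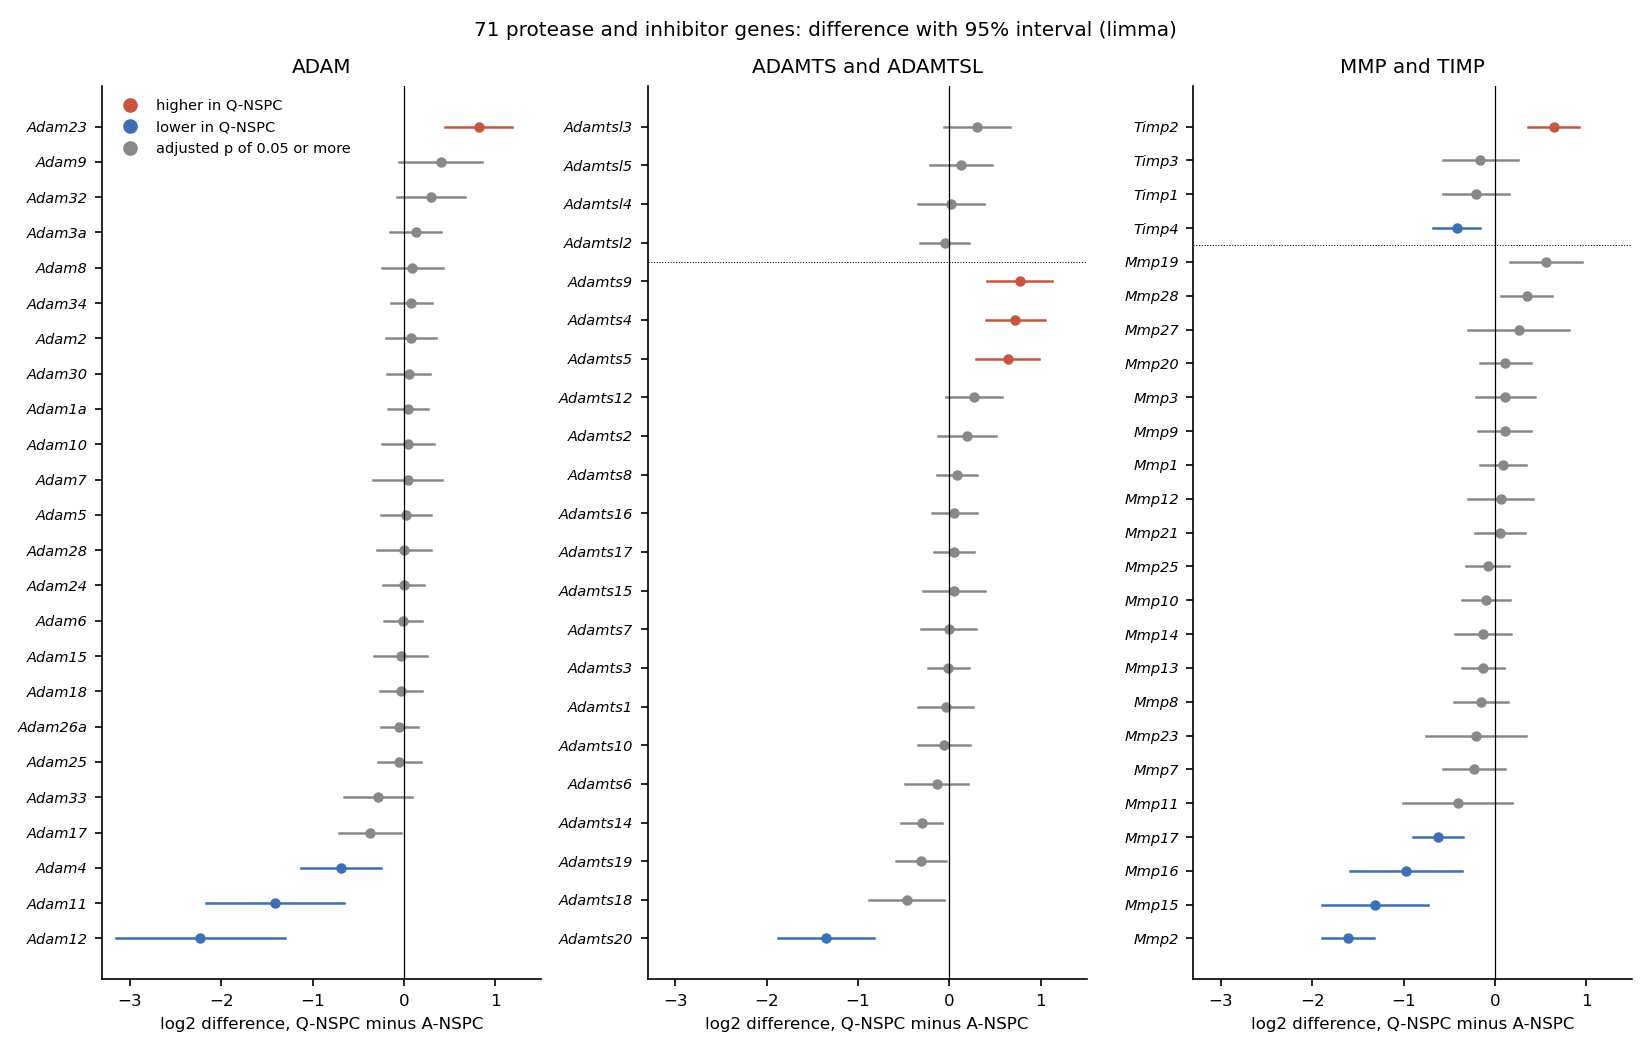
Log2 difference (Q-NSPC minus A-NSPC) of each of the 71 genes by family, with the 95% confidence interval from limma. The 9 genes that fell reach from -0.42 (Timp4) to -2.23 (Adam12), and the 5 that rose lie between 0.64 and 0.82.

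Mmp2, the gelatinase that degrades collagen IV and denatured collagen, fell about 3-fold and had the smallest p-value of all members. Its log2 intensity was 10.92, 11.25 and 11.17 in A-NSPCs and 9.45, 9.66 and 9.41 in Q-NSPCs (replicates 1, 2 and 3 in order, as in all such lists). The groups were far apart, and Q-NSPC replicate 1 lay among the other quiescent cultures. The difference was -1.61 (standard error 0.12, adjusted p = 0.0016), which is 3.05-fold higher in A-NSPCs, and it stayed past the threshold with each of the 6 arrays left out (highest adjusted p = 0.0151). Mmp2 was the only member of which this held. Mmp9, the other gelatinase, gave 6.38, 6.57 and 6.51 in A-NSPCs and 6.78, 6.65 and 6.36 in Q-NSPCs, so the groups overlapped. Its difference of 0.11 had a 95% interval of -0.18 to 0.40.

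Of the 5 measured MMPs of the membrane-type (MT) group 3 fell and 0 rose. The 3 are 60.0% of this small group, where 6.2% of all genes fell. Mmp15, also called MT2-MMP, is a transmembrane protease that can activate the Mmp2 proenzyme. It gave 12.13, 11.86 and 12.41 in A-NSPCs and 11.29, 10.25 and 10.91 in Q-NSPCs. Every quiescent culture lay below every active one, and the gene was 2.49-fold higher in A-NSPCs (difference -1.31, standard error 0.25, adjusted p = 0.0164). Mmp16, or MT3-MMP, is another transmembrane activator of Mmp2. Its values were 10.02, 9.87 and 10.11 in A-NSPCs and 9.65, 8.41 and 9.02 in Q-NSPCs, with Q-NSPC replicate 1 close to the active cultures. The difference of -0.97 (standard error 0.27) was just past the threshold (adjusted p = 0.0469), and without Q-NSPC replicate 1 it was -1.28 (adjusted p = 0.00137). Mmp17, or MT4-MMP, is held in the membrane by a lipid anchor and is known to process Adamts4. It gave 8.17, 7.98 and 7.98 in A-NSPCs and 7.60, 7.41 and 7.26 in Q-NSPCs without overlap, a difference of -0.62 (standard error 0.12, adjusted p = 0.016). Mmp14, the main activator of Mmp2 together with Timp2, gave a mean of 6.70 in A-NSPCs and 6.58 in Q-NSPCs, and its difference of -0.13 had a 95% interval of -0.43 to 0.18. Mmp25, the other lipid-anchored MMP, gave 7.68, 7.83 and 7.60 in A-NSPCs and 7.65, 7.68 and 7.53 in Q-NSPCs, which overlapped (difference -0.08). The call of Mmp15 was lost without A-NSPC replicate 1, A-NSPC replicate 3 or Q-NSPC replicate 3 (adjusted p up to 0.0732), and that of Mmp17 without any of these or Q-NSPC replicate 2 (up to 0.074). The call of Mmp16 was lost without any array other than Q-NSPC replicate 1 (up to 0.141).

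**Figure D2:**
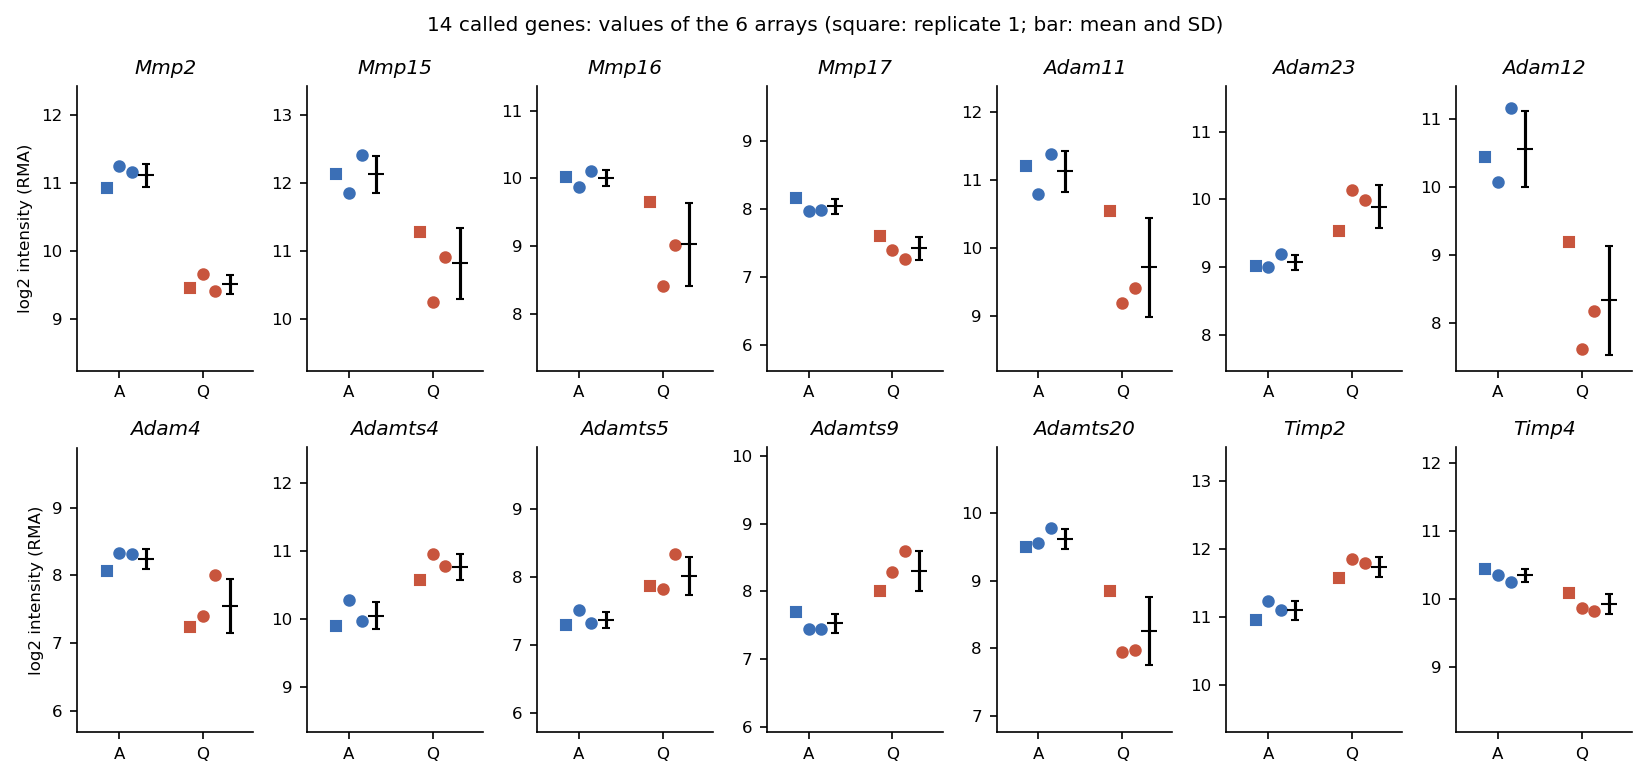
Log2 intensity of the 6 arrays for each of the 14 called genes, with A-NSPC (A) and Q-NSPC (Q) side by side, a separate symbol for replicate 1, and bars for the mean and SD of 3 arrays. No quiescent array overlaps the active arrays in any of the 14 genes, which were called on these same arrays. Over all genes the quiescent arrays lay below the active ones in 15.3% and above them in 18.7%.

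None of the other 14 MMP genes was called. Among the collagenases, which cut fibrillar collagen, Mmp8 gave 5.84, 5.55 and 5.78 in A-NSPCs and 5.56, 5.77 and 5.39 in Q-NSPCs and Mmp1 gave 4.39, 4.48 and 4.36 in A-NSPCs and 4.33, 4.52 and 4.64 in Q-NSPCs. Both overlapped, with differences of -0.15 and 0.09. Mmp11, stromelysin 3, gave 10.92, 10.56 and 11.12 in A-NSPCs and 9.88, 10.94 and 10.56 in Q-NSPCs, and Q-NSPC replicate 1 was the lowest of the 6 arrays while replicate 2 lay among the active cultures. Its difference was -0.41 (adjusted p = 0.355), and that of Mmp3, stromelysin 1, was 0.11 from values of 6.14, 6.31 and 6.22 in A-NSPCs and 6.40, 6.56 and 6.04 in Q-NSPCs. Mmp19 and Mmp28 (epilysin) differed in the other direction from Mmp2. Mmp19 gave 6.78, 6.32 and 6.54 in A-NSPCs and 6.85, 7.41 and 7.05 in Q-NSPCs, and all quiescent values lay above the active ones. Its difference of 0.56 did not pass the test (adjusted p = 0.0643), but did without Q-NSPC replicate 1 (0.68, adjusted p = 0.0184). Mmp28 gave 7.16, 7.12 and 7.26 in A-NSPCs and 7.44, 7.76 and 7.38 in Q-NSPCs, also without overlap (difference 0.35, adjusted p = 0.0959). Mmp23 gave 6.97, 6.57 and 7.11 in A-NSPCs and 6.89, 7.02 and 6.14 in Q-NSPCs, with wide overlap (difference -0.20).

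Among the TIMPs, Timp2 rose and Timp4 fell. Timp2 inhibits MMPs and, in a complex with Mmp14, also takes part in the activation of the Mmp2 proenzyme. Its log2 intensity was 10.95, 11.24 and 11.10 in A-NSPCs and 11.57, 11.85 and 11.80 in Q-NSPCs. The quiescent values were all higher, 1.56-fold in the mean (difference 0.64, standard error 0.12, adjusted p = 0.0152). Timp4, an inhibitor found mainly in brain and heart, gave 10.44, 10.35 and 10.25 in A-NSPCs and 10.09, 9.87 and 9.82 in Q-NSPCs. These did not overlap, but the change was the smallest of the 14 called (difference -0.42, standard error 0.11, adjusted p = 0.0428). Timp1, which cytokines induce in many cells, gave 7.17, 7.57 and 6.98 in A-NSPCs and 6.97, 6.96 and 7.18 in Q-NSPCs. Timp3, which binds the matrix and inhibits Adam17 and the aggrecanases, gave 5.96, 6.29 and 6.45 in A-NSPCs and 5.73, 6.31 and 6.17 in Q-NSPCs. Both overlapped between groups, with differences of -0.21 (95% interval -0.57 to 0.15) and -0.16 (95% interval -0.57 to 0.25). The call of Timp2 was lost without A-NSPC replicate 1 or 3 or Q-NSPC replicate 2 or 3 (adjusted p up to 0.0705), and that of Timp4 without any array other than Q-NSPC replicate 1 (up to 0.153).

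Adam12 had the largest difference of all 71 genes and was nearly 5-fold lower in Q-NSPCs. Adam12, meltrin alpha, is an active sheddase that cuts growth factor precursors and IGF-binding proteins. It gave 10.43, 10.07 and 11.16 in A-NSPCs and 9.19, 7.61 and 8.17 in Q-NSPCs. Active cultures spread over more than 1 log2 unit, yet every quiescent culture was lower (difference -2.23, standard error 0.40, 4.69-fold, adjusted p = 0.0141). Of the 8 measured genes of active sheddases, Adam12 was the only one called with all arrays (12.5%, against 14.1% of all genes). Adam10, the main sheddase of Notch, N-cadherin and the amyloid precursor protein, had a mean of 10.17 in A-NSPCs and 10.22 in Q-NSPCs, and the 95% interval of its difference was -0.24 to 0.33. Adam17, the sheddase of TNF and EGF-family ligands, had means of 10.08 in A-NSPCs and 9.71 in Q-NSPCs. Its difference of -0.37 did not pass the test (adjusted p = 0.142), but without Q-NSPC replicate 1 it was -0.54 (adjusted p = 0.00768). Adam9, a sheddase related to Adam12, gave 10.15, 10.29 and 10.22 in A-NSPCs and 10.13, 10.98 and 10.74 in Q-NSPCs, where Q-NSPC replicate 1 lay with the active cultures. Its difference was 0.40 (adjusted p = 0.225), and 0.64 without that array (adjusted p = 0.00502). Adam8, Adam28 and Adam33 had differences of 0.09, -0.00 and -0.28. Adam15 had a difference of -0.04 on the brighter of its 2 probe sets and of 0.82 on the other, so the array does not give it 1 value. The call of Adam12 was lost without A-NSPC replicate 1, A-NSPC replicate 3 or Q-NSPC replicate 3 (adjusted p up to 0.0668).

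Adam11 and Adam23, neuronal surface ADAMs that lack the protease motif and act in adhesion, moved in opposite directions. Adam11 gave 11.20, 10.80 and 11.38 in A-NSPCs and 10.54, 9.19 and 9.40 in Q-NSPCs, without overlap. It fell 2.66-fold (difference -1.41, standard error 0.33, adjusted p = 0.0284), and without Q-NSPC replicate 1 its difference was -1.83 (adjusted p = 0.000225). Adam23, a receptor of the secreted protein Lgi1, gave 9.02, 9.00 and 9.20 in A-NSPCs and 9.53, 10.15 and 9.99 in Q-NSPCs. All quiescent values were higher, 1.76-fold in the mean (difference 0.82, standard error 0.16, adjusted p = 0.0171). Both calls were lost without any array other than Q-NSPC replicate 1 (adjusted p up to 0.114 for Adam11 and 0.0785 for Adam23). Of the 4 LGI proteins, Lgi1 rose from a mean of 8.56 to 11.97 and Lgi2 fell from 9.50 to 7.92 (differences 3.41 and -1.58, adjusted p = 0.00229 and 0.0121). Lgi3 and Lgi4 had differences of 0.01 and -0.13. The call of Lgi2 was lost without A-NSPC replicate 1, A-NSPC replicate 3 or Q-NSPC replicate 3 (adjusted p up to 0.0601), and that of Lgi1 held without each array.

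Of the 14 ADAM genes known mainly from testis and sperm, 12 lay under the 25th percentile of intensity. Adam4 alone was called (7.14%, against 14.1% of all genes). Adam4 gave 8.07, 8.33 and 8.32 in A-NSPCs and 7.24, 7.40 and 8.00 in Q-NSPCs. The groups did not overlap (difference -0.69, standard error 0.19, adjusted p = 0.0493), and in this gene Q-NSPC replicate 1 was the farthest from the active cultures. The call was lost without any array other than Q-NSPC replicate 3 (adjusted p up to 0.151). The array also holds a probe set for a gene named Adam4l1, and whether the probes of Adam4 take up its signal was not tested. Adam1a, needed for sperm function in mice, gave 8.65, 8.72 and 8.58 in A-NSPCs and 8.75, 8.62 and 8.72 in Q-NSPCs, and Adam32 gave 5.02, 5.23 and 5.54 in A-NSPCs and 5.63, 5.32 and 5.72 in Q-NSPCs. Both overlapped, with differences of 0.05 and 0.30.

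Among the ADAMTS proteases that can cut lecticans (aggrecanases), 3 of 7 rose and 1 fell. These are 42.9% and 14.3% of this small group, where 7.91% of all genes rose and 6.2% fell. Adamts4, aggrecanase 1, which cuts brevican and aggrecan, gave 9.90, 10.28 and 9.97 in A-NSPCs and 10.57, 10.96 and 10.78 in Q-NSPCs. It was 1.65-fold higher in Q-NSPCs, without overlap (difference 0.72, standard error 0.14, adjusted p = 0.0171). Adamts5, aggrecanase 2, gave 7.28, 7.51 and 7.32 in A-NSPCs and 7.86, 7.83 and 8.33 in Q-NSPCs. Adamts9, a versican-cutting protease, gave 7.69, 7.45 and 7.45 in A-NSPCs and 8.01, 8.29 and 8.59 in Q-NSPCs. Each quiescent value was above each active one in both genes, with differences of 0.64 for Adamts5 (standard error 0.15, adjusted p = 0.0294) and 0.77 for Adamts9 (standard error 0.16, adjusted p = 0.019). Adamts20, a relative of Adamts9 that in mice also cuts versican, moved the other way. It gave 9.50, 9.55 and 9.77 in A-NSPCs and 8.84, 7.95 and 7.98 in Q-NSPCs. The fall was 2.55-fold (difference -1.35, standard error 0.23, adjusted p = 0.0118), and Q-NSPC replicate 1 stood nearly midway between the active and the other quiescent cultures. Adamts1, Adamts8 and Adamts15, the remaining aggrecanases, had differences of -0.04, 0.08 and 0.05. The calls of Adamts5 and Adamts9 were lost without any array other than Q-NSPC replicate 1 (adjusted p up to 0.111 and 0.0757). That of Adamts4 was lost without A-NSPC replicate 1 or 3 or Q-NSPC replicate 2 or 3 (up to 0.0792), and that of Adamts20 without A-NSPC replicate 1 or 3 or Q-NSPC replicate 3 (up to 0.0571).

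The remaining 11 ADAMTS genes and the 4 ADAMTSL genes were not called. Adamts14, which with Adamts2 and Adamts3 trims the ends of procollagens, gave 7.58, 7.55 and 7.64 in A-NSPCs and 7.39, 7.26 and 7.20 in Q-NSPCs. These did not overlap, and its difference of -0.30 did not pass the test (adjusted p = 0.0726, or 0.0337 without Q-NSPC replicate 1). Adamts2 gave 6.87, 7.18 and 6.97 in A-NSPCs and 7.01, 7.44 and 7.14 in Q-NSPCs, with overlap (difference 0.19), and Adamts3 had a difference of -0.01. Adamts18 gave 7.02, 7.58 and 7.68 in A-NSPCs and 7.12, 6.95 and 6.82 in Q-NSPCs and differed by -0.47 (adjusted p = 0.122). Adamts12, which cuts cartilage matrix, gave 9.22, 8.92 and 9.29 in A-NSPCs and 9.41, 9.25 and 9.57 in Q-NSPCs and differed by 0.27 (adjusted p = 0.227). Adamts10, which binds fibrillin, gave 10.54, 10.22 and 10.61 in A-NSPCs and 10.30, 10.47 and 10.42 in Q-NSPCs, and its difference of -0.06 had a 95% interval of -0.35 to 0.23. ADAMTSL proteins resemble ADAMTS proteins without the protease domain and bind fibrillin-rich matrix. Adamtsl5 gave 7.70, 7.14 and 7.50 in A-NSPCs and 7.67, 7.58 and 7.48 in Q-NSPCs (difference 0.13). Adamtsl3 gave 7.29, 6.93 and 6.86 in A-NSPCs and 7.16, 7.59 and 7.24 in Q-NSPCs (difference 0.30). Adamtsl2 gave 6.84, 6.85 and 6.75 in A-NSPCs and 6.62, 6.97 and 6.70 in Q-NSPCs (difference -0.05), and in all 3 the groups overlapped.

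The quiescent cultures were not equally far from the active ones in all called genes. In Mmp2 the distance of Q-NSPC replicate 1 from the A-NSPC mean was 105% of that of Q-NSPC replicates 2 and 3, and in Adam4 it was 185%. In the other 12 it ran from 27.6% in Mmp16 and 31.8% in Adam11 to 65.0% in Timp2 and 69.6% in Adamts5. Over all genes that fell on the array the median was 54.4%, with quartiles at 40.5% and 75.6%, and over those that rose it was 61.1%, with quartiles at 48.5% and 76.7%.

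**Figure D3:**
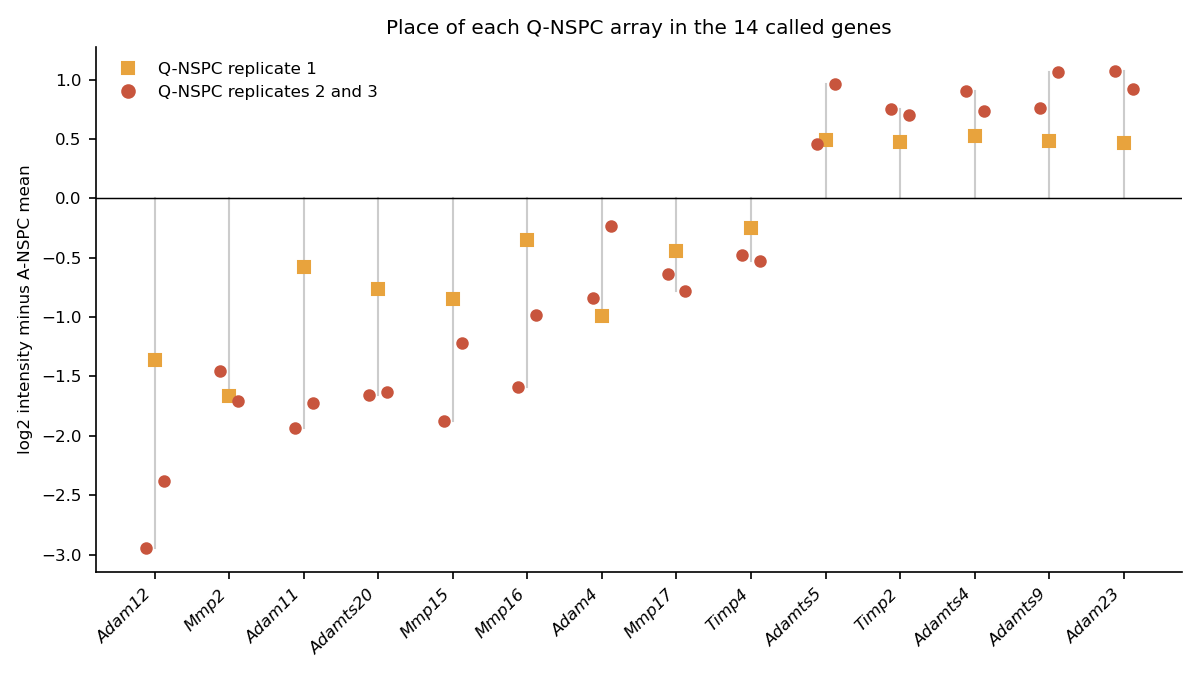
Difference of each Q-NSPC array from the A-NSPC mean (log2 units) in the 14 called genes, with Q-NSPC replicate 1 set apart from replicates 2 and 3 by its symbol. Replicate 1 lies beside the other replicates in Mmp2 and nearer to the A-NSPC mean in Adam11 and Mmp16.

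Of 26 genes for surface proteins that Adam10 or Adam17 shed, 6 rose and 3 fell in Q-NSPCs. These are 23.1% and 11.5% of the list, where 7.91% of all genes rose and 6.2% fell. The list's counts also depended on single arrays, with 6 higher and 5 lower without Q-NSPC replicate 1 (23.7% of all genes called). They were 5 and 2 when Q-NSPC replicate 2 was left out (4.48%), and 4 and 0 for Q-NSPC replicate 3 (2.71%). Leaving out A-NSPC replicate 1 gave 3 and 0 (2.43%), and leaving out A-NSPC replicate 2 gave 6 and 1 (6.94%). Without A-NSPC replicate 3 they were 4 and 0 (2.86%). Efna5, an ephrin ligand, rose 3.02-fold, Notch2 1.67-fold, App, the amyloid precursor, 1.8-fold, and the adhesion protein Ncam1 1.73-fold (adjusted p = 0.00229, 0.00627, 0.00826 and 0.00971). Cx3cl1, a membrane-bound chemokine, the Notch ligand Jag1 and the growth factor Tgfa fell by 0.59, 0.50 and 0.75 on the log2 scale. Ncam1 lost its call without A-NSPC replicate 1 (adjusted p = 0.054), Cx3cl1 without A-NSPC replicate 1 or 3 or Q-NSPC replicate 3 (up to 0.0656), Jag1 without these or A-NSPC replicate 2 (up to 0.0834) and Tgfa without any array other than Q-NSPC replicate 1 (up to 0.163). The Notch ligand Dll1 did not overlap between groups and had a difference of -1.51 (adjusted p = 0.0577), and without Q-NSPC replicate 1 it was 4.28-fold lower in Q-NSPCs (adjusted p = 0.000145). Notch1 had -0.43 (adjusted p = 0.244), or -0.72 without that array (adjusted p = 0.0014). Of 8 measured partners of ADAM proteases 2 fell and 0 rose. Tspan33, one of the tetraspanins that escort Adam10 to the surface, fell by 0.87, and Sh3pxd2a, an adaptor that binds Adam12 and other ADAMs in invasive structures, by 0.52 (adjusted p = 0.0202 and 0.022). Both calls were lost without A-NSPC replicate 1 or 3 or Q-NSPC replicate 2 or 3, and that of Tspan33 also without A-NSPC replicate 2 (adjusted p up to 0.0879 for Tspan33 and 0.0885 for Sh3pxd2a). Rhbdf1 and Rhbdf2, the iRhoms that carry Adam17, had differences of 0.05 and 0.30.

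Of 20 matrix substrates 4 rose and 4 fell with all arrays (20.0% each, where 7.91% of all genes rose and 6.2% fell). The counts were 4 higher and 7 lower when Q-NSPC replicate 1 was left out (23.7% of all genes called). Leaving out Q-NSPC replicate 2 gave 4 and 2 (4.48%), and for Q-NSPC replicate 3 it gave 2 and 0 (2.71%). With A-NSPC replicate 1 dropped they were 2 and 0 (2.43%). Dropping A-NSPC replicate 2 left 3 and 3 (6.94%), and the arrays other than A-NSPC replicate 3 gave 3 and 0 (2.86%). Hapln1, the link protein that fixes lecticans to hyaluronan, rose by 1.69, Reln, the secreted protein reelin, by 1.32, Ncan, the lectican neurocan, by 0.53 and Fn1, fibronectin, by 0.77. The lecticans Bcan, Vcan and Acan had differences of -0.50, 0.17 and 0.22 and did not pass the test with all arrays. Without Q-NSPC replicate 1 the difference of Bcan was -0.74 (adjusted p = 0.00281). The 4 genes that fell were Col4a1 of collagen IV (-0.62, adjusted p = 0.0109) and the laminin chains Lama4 (-1.29), Lamc1 (-0.59) and Lamb1 (-0.33). Other genes of collagen IV and laminins, Col4a2, Lama1 and Lama2, were not called (-0.26, -0.05 and 0.21). Tnr and Fbn1 had differences of -1.57 and -0.51 and were not called with all arrays (adjusted p = 0.0512 and 0.0718). Without Q-NSPC replicate 1 both fell (adjusted p = 0.00103 and 0.0171). Hapln1 and Reln passed with each array left out. Ncan did not without A-NSPC replicate 1 or Q-NSPC replicate 3 (adjusted p up to 0.0639), Col4a1 and Lama4 without either of these or A-NSPC replicate 3 (up to 0.0569 and 0.0791), Lamc1 without those 3 or Q-NSPC replicate 2 (up to 0.0798), Fn1 without any A-NSPC array or Q-NSPC replicate 3 (up to 0.0885) and Lamb1 without any array other than Q-NSPC replicate 1 (up to 0.156).

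Of 8 other inhibitors and modulators of metalloproteases 1 rose and 1 fell (12.5% each, where 7.91% of all genes rose and 6.2% fell). Without Q-NSPC replicate 1, 3 rose and 1 fell (23.7% of all genes called). Spock3, a testican that inhibits membrane-bound MMPs, fell by 1.78 (adjusted p = 0.0104), and Pcolce, which enhances the cutting of procollagen, rose by 1.06 (adjusted p = 0.0409). Spock3 was not called without A-NSPC replicate 1 or Q-NSPC replicate 3 (adjusted p up to 0.0585), nor Pcolce without any array other than Q-NSPC replicate 1 (up to 0.126). Reck, a membrane-anchored inhibitor of Mmp2, Mmp9 and Mmp14, had a difference of 0.73 without overlap (adjusted p = 0.0643), and of 1.03 without Q-NSPC replicate 1 (adjusted p = 0.000227). None of 4 proprotein convertases, which activate MMP and ADAM proenzymes, and none of 7 genes of plasminogen activation was called with all arrays. Of all genes 14.1% were called with all arrays. Without Q-NSPC replicate 1, 1 convertase (Furin) rose (23.7% of all genes called). Furin also rose without A-NSPC replicate 2 (6.94%). In plasminogen activation 1 gene rose without Q-NSPC replicate 1 (Serpini1, a serpin of neurons) and 1 fell (Plat, tissue plasminogen activator). With all arrays Furin and Serpini1 had the largest differences there, of 0.49 and 0.65.

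**Figure D4:**
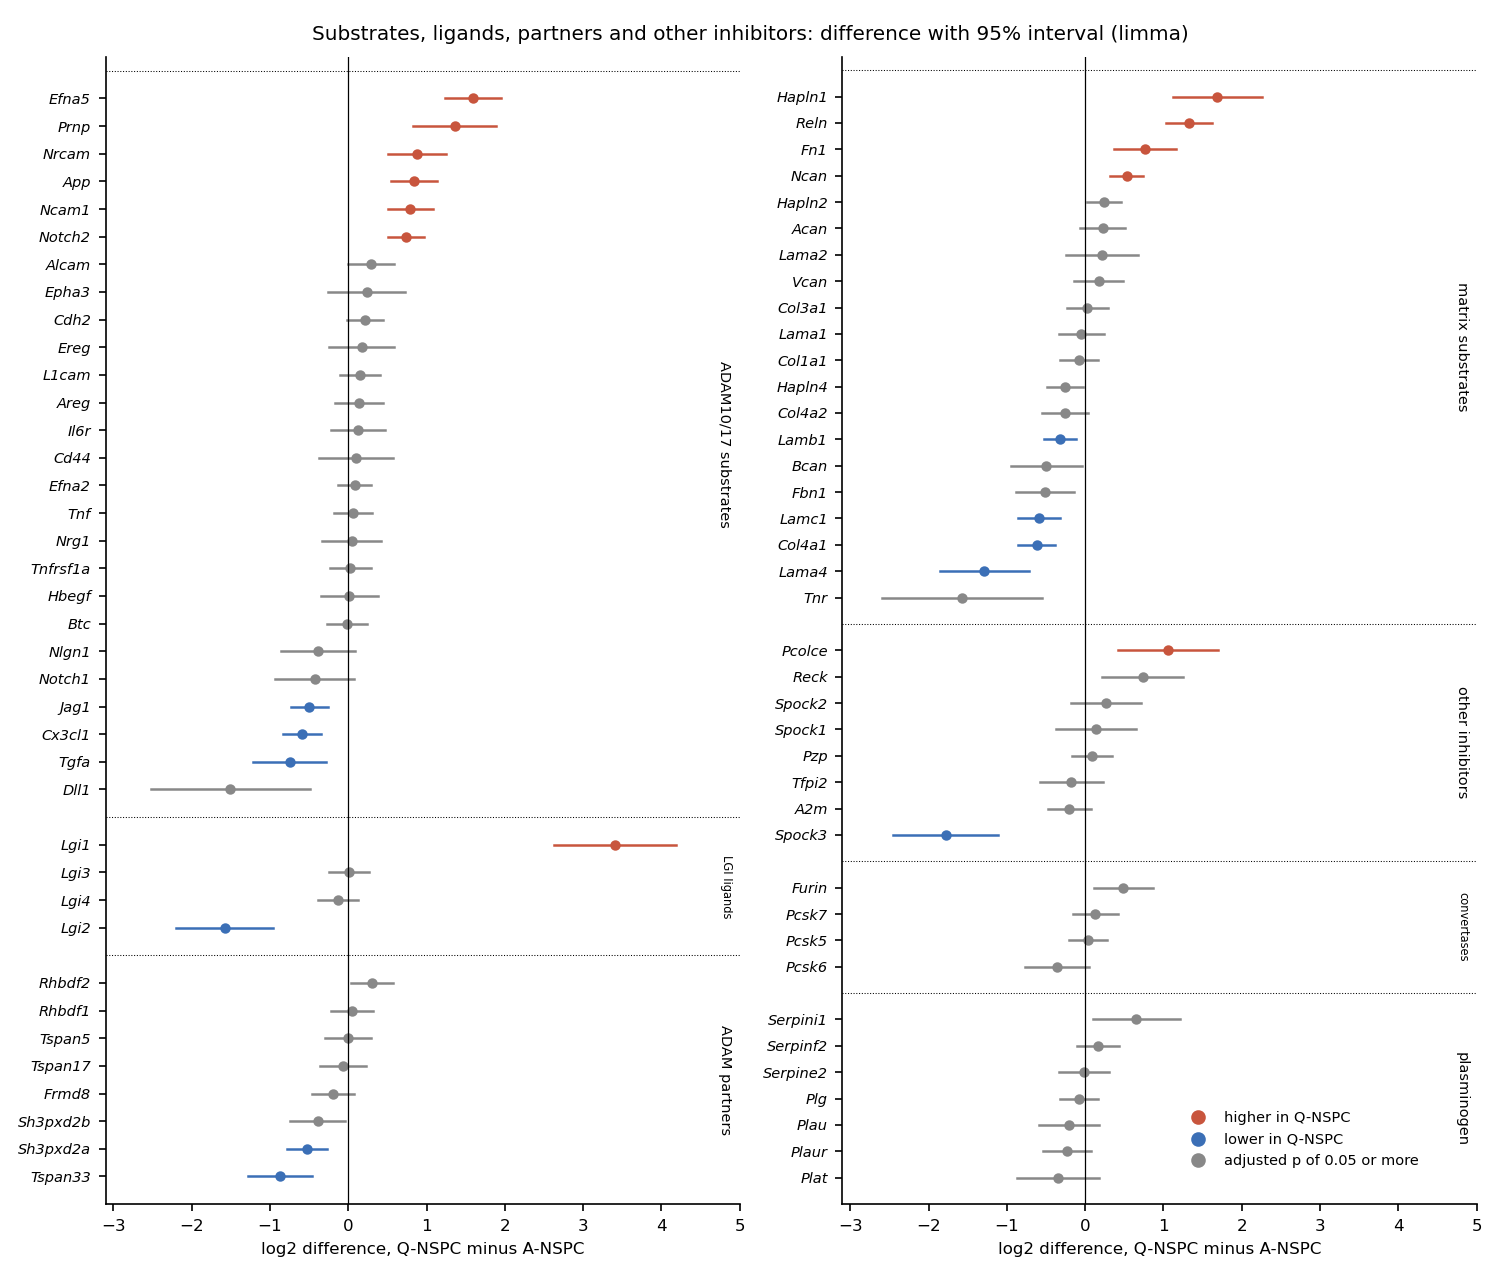
Log2 difference (Q-NSPC minus A-NSPC) with its 95% confidence interval from limma for substrates, ligands, partners and other inhibitors of the proteases, grouped by list and coloured by call. Lgi1 at 3.41 and Spock3 at -1.78 lie at the ends of the range.

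Promoter windows of 300 bases around the start of transcription, most of each lying before it, were taken from RefSeq on build GRCr8. They were found for 47 of the 71 genes and 8 of the 14 called ones. Those of Adam12, Adamts20, Mmp15 and Timp2 are shown because these had the smallest p-value of their family among called genes with a window. In order they lie at chr1:198443631-198443930, chr7:127407247-127407546, chr19:9690951-9691250 and chr10:104089165-104089464, all on the minus strand, and are written 5′ to 3′ along the gene. Capitals mark GGGCGG, the GC box that Sp1 binds, and GGCGCC, a GC-rich element that BMP-activated SMADs can bind, on either strand.
Adam12 promoter: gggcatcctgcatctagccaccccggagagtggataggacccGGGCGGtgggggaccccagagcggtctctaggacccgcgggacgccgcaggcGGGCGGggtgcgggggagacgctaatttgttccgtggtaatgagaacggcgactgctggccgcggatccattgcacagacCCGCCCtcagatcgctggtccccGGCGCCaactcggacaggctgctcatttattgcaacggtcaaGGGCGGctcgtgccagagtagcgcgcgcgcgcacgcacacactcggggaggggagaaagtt
Adamts20 promoter: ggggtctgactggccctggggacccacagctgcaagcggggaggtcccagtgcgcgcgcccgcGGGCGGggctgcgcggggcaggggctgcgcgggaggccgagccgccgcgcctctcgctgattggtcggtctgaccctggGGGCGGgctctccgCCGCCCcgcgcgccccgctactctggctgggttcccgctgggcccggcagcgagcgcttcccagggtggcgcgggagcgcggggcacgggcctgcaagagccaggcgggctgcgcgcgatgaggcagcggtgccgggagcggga
Mmp15 promoter: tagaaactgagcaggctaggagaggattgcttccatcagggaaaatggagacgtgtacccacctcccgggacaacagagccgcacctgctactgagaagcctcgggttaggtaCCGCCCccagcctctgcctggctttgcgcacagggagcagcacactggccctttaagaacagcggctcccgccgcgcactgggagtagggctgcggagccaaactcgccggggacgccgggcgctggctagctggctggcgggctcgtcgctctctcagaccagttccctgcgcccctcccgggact
Timp2 promoter: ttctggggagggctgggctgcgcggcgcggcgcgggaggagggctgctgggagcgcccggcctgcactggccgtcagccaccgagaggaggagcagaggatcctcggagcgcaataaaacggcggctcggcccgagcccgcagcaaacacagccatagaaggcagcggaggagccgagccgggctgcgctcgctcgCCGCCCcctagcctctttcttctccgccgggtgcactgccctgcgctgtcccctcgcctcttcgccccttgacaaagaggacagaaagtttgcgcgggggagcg
GGGCGG matched 4 times in the Adam12 window, 3 times in that of Adamts20 and 1 time each in those of Mmp15 and Timp2, and GGCGCC matched 1 time, in Adam12. Of 27457 windows of this length 34.9% held GGGCGG and 11.8% held GGCGCC. Of the 47 members 23 and 13 did, and of the 8 called members 5 (Adam12, Adamts9, Adamts20, Mmp15 and Timp2) and 2 (Adam12 and Adamts9). The genes with GGGCGG include some that rose and some that fell. The AP-1 motif TGANTCA, known from MMP promoters, was in 7.33% of all windows, in 8 of 47 members and in 0 of the 8 called. The TCF/LEF motif CTTTGAT was in 3.62% of all windows and in 1 member. Both strands were searched. These matches describe letters in a window and were not tested for binding.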

How the data were processed

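Total RNA of 3 A-NSPC and 3 Q-NSPC cultures was hybridized to 1 Affymetrix Rat Gene 1.1 ST array each. The authors deposited log2 intensities made with RMA, and their processing notes name Affymetrix Expression Console and Partek 6.10. Scan files were not used here. The platform annotation gives exactly 1 symbol to 18644 of 29214 probe sets, for 17245 genes. Each gene was represented by its brightest probe set (mean of the 6 arrays). Array medians lay between 7.53 and 7.57. The number of arrays limits the precision.

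Cultures were grouped by the titles in the deposited labels. Genes were tested with limma 3.58.1 under R 4.3.3, using lmFit with group means and default eBayes, two-sided, with Benjamini-Hochberg adjustment over 17245 genes and a threshold of 0.05. The code was tested on simulated data. The members, the lists of subfamilies, substrates, partners and markers, and the rules were chosen with earlier results of these arrays known. Named with the values of every array are all called members, all TIMPs and, in each subfamily, the member brightest in A-NSPCs and those with the largest difference in each direction. From the other lists up to 4 called genes a direction are named by p. Bcan, Vcan, Acan, Col4a2, Lama1, Lama2, Tnr, Fbn1, Reck, Dll1, Notch1, Rhbdf1 and Rhbdf2 were named after their values were seen. The same holds for the progenitor markers other than Msi1. Alternatives were the mean of probe sets, every probe set tested, a filter on dim genes (under the 25th percentile in both groups), quantile normalization, trended robust variances, array weights, the replicate number as a block, the methods' t-test and each array left out.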

Additional observations from a re-analysis of the deposited data

How the results depend on the processing

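No called member changed direction under any alternative run. With all 6 arrays, 5 members were higher and 9 lower in Q-NSPCs. The counts were 5 to 7 and 8 to 10 with the mean of probe sets, every probe set tested, the filter on dim genes, quantile normalization, trended robust variances or array weights. Of all genes (or probe sets) tested, 21.0% were called with that filter and 23.4% with array weights. With the other settings named it was 13.7% to 14.6%, against 14.1% in the main test. Adam15 was gained with the mean of probe sets, Adamts14 with quantile normalization, and Adam9, Adam17, Adamts14 and Mmp19 with array weights, in which Q-NSPC replicate 1 had a weight of 0.462. Adam4 was lost with array weights and with every probe set tested. With 1 array left out, 0 to 7 members were higher and 1 to 10 lower (2.43% to 23.7% of all genes called). The methods' t-test, unpaired, called 6 higher and 9 lower members at an unadjusted p under 0.05, and 0 higher and 0 lower after Benjamini-Hochberg adjustment, when it called 0 of all 17245 genes (4241 at an unadjusted p under 0.05). With the replicate number as a block, 5 members were higher and 8 lower (11.8% of all genes called), and Timp4 was not called (adjusted p = 0.0518). Deviations of arrays with the same number correlated at -0.055, 0.00924 and -0.0342, against up to 0.0828 between different numbers. No pairing was seen, but with 3 arrays a group these values cannot exclude that same-numbered cultures were paired. The 3 arrays a group limit the precision, and RMA values near background carry no detection call.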

Other observations

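The dimmer probe set of Adam15, a sheddase with adhesive functions, gave 8.21, 8.00 and 8.21 in A-NSPC replicates 1, 2 and 3 and 8.84, 8.91 and 9.12 in Q-NSPC replicates 1, 2 and 3, a difference of 0.82 (limma over all 18644 probe sets with 1 symbol, adjusted p = 0.00748). Its brighter probe set gave means of 9.84 and 9.80. The dimmer probe sets of Adam1a, Adamts3, Adamts8 and Adamts19 had differences of -0.00, -0.11, -0.25 and 0.18 and were not called.

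A probe set that the platform assigns to both Adam19, another active sheddase, and Sox30 gave 9.65, 9.41 and 10.02 in A-NSPCs and 8.93, 9.15 and 9.22 in Q-NSPCs. All quiescent values were lower, with a mean difference of -0.59, and the signal cannot be given to 1 of these genes. A probe set shared by Cacfd1 and Adamts13 had a difference of 0.02, and one shared by Mmp1b and Mmp12 had -0.08. None of these was tested, since each matches several genes.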
